A study of Mus musculus with 27 samples.

Results

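Matrix metalloproteinases and their inhibitors, which together remodel tissue, were followed in mouse dorsal skin as 10 genes: the protease genes Mmp2, Mmp3, Mmp9, Mmp11, Mmp13 and Mmp14 and the inhibitor genes Timp1, Timp2, Timp3 and Timp4. They were taken by gene name from a table of 54532 genes, and all 10 were found, each as 1 row. The 27 RNA-seq libraries fell into 3 groups of 9, all of strain C3H. Blank skin was left untreated, Vehicle skin was given the solvent, and TDM skin was given TDM10842, a thyroid hormone receptor agonist by the title of the series, which concerns hair growth. Vehicle and TDM skin each had 2 applications of 60 µL, at 0 h and 24 h, and Blank skin had none. No allele, transgene, age or sex is stated for the animals, and no dose of TDM10842 or time of sampling was found in the labels. Nothing in the labels tells whether libraries of a group are from separate mice, so p-values measure the spread between libraries, some of which may be technical.

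Matrix metalloproteinases are zinc-dependent enzymes that are made as inactive precursors and cut collagens, gelatin, laminins and proteoglycans outside the cell. TIMPs are small secreted proteins that bind the active site of these enzymes and block it. MT1-MMP, the membrane-anchored protease encoded by Mmp14, activates the precursor of gelatinase A (Mmp2) at the cell surface, and TIMP2 takes part in that step as a bridge between both proteases as well as inhibiting them. In skin several of these genes are best known from dermal fibroblasts, and matrix turnover accompanies the growth and regression of the hair follicle.

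Library totals ran from 15412332 to 17599066 reads. The skin keratin genes Krt5 and Krt14 averaged 2279 and 2116 CPM, the count scaled to library size, and the dermal collagen gene Col1a1 averaged 8949 CPM. The protocol text speaks of retinas, but of 12 retina genes the most abundant, Opn1mw, averaged 2.08 CPM, and the median gene averaged 0.0893 CPM. No pair of libraries within a group agreed within sampling noise. Levels of a gene across libraries are given below as CPM after scaling with edgeR's TMM factors. Levels of different genes are compared only in FPKM, which is also scaled by gene length.

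The 10 genes covered a wide range of levels. In FPKM over all 27 libraries, Timp2 was the most abundant at 245 ± 106 (SD, n = 27), followed by Mmp2 at 133 ± 73.2. Mmp14 came next at 51.4 ± 29.5 FPKM, and then Mmp3, the stromelysin-1 gene, at 33.1 ± 20.3. Timp3, the inhibitor that stays bound to the matrix, had 21.4 ± 8.08 FPKM. Mmp11, Timp1 and Timp4 averaged 7.56, 6.94 and 3.43 FPKM. Mmp9, gelatinase B, averaged 2.14 FPKM, and Mmp13, the collagenase-3 gene, 0.342. Some steps of the order held in every library: Timp2 was above Mmp2, Mmp2 above Mmp14, Timp3 above Mmp11 and Mmp9 above Mmp13 in each of the 27 libraries. Other neighbours crossed: Mmp3 was above Timp3 in 19 of 27 libraries and Mmp11 above Timp1 in 18. Mmp14 was above Mmp3 in 25 libraries, Timp1 above Timp4 in 26 and Timp4 above Mmp9 in 22.

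**Figure D1:**
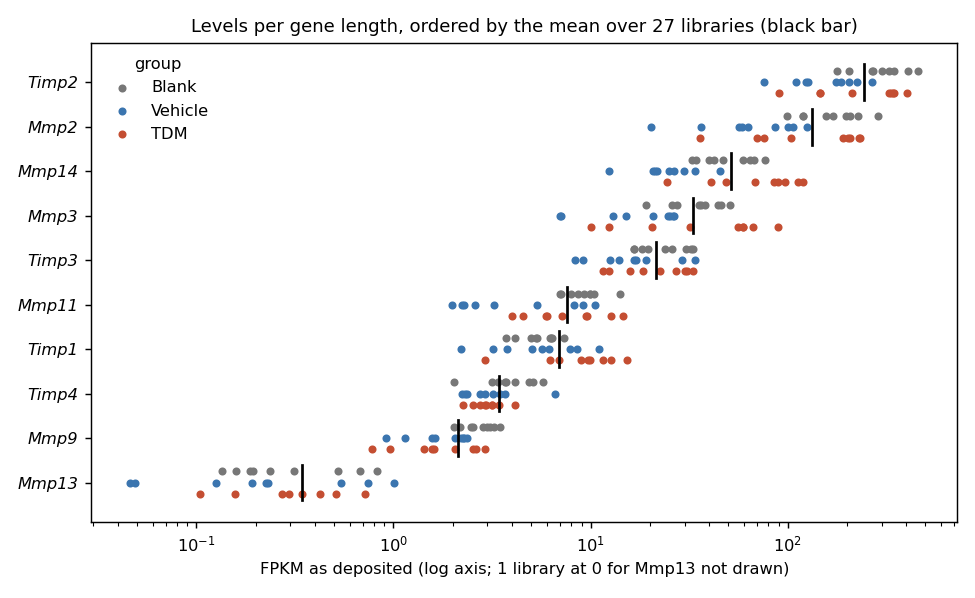
FPKM of each gene in each library on a log axis, with genes ordered by their mean over 27 libraries (black bars) and libraries coloured by group. Timp2 lies highest at a mean of 245 FPKM and Mmp13 lowest at 0.342.

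The upstream sequences are shown for 3 protease genes that stand at different points of this range and moved differently: Mmp3 and Mmp13, both on chromosome 9, and Mmp14, which of the 10 had the largest log2 fold change in TDM against Vehicle. Each is the 250 bases before the annotated start, 5′ to 3′ on the gene's own strand, from RefSeq on GRCm38.p6. The windows are chr9:7445572-7445821 for Mmp3, chr9:7272264-7272513 for Mmp13 and chr14:54431348-54431597 for Mmp14, all on the plus strand. Capitals mark a match to the AP-1 motif TGANTCA, which was searched on both strands.
Mmp3: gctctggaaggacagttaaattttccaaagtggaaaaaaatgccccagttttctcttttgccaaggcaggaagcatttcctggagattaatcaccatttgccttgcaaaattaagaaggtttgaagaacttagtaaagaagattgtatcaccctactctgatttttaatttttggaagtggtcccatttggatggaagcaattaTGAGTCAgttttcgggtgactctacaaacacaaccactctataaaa
Mmp13: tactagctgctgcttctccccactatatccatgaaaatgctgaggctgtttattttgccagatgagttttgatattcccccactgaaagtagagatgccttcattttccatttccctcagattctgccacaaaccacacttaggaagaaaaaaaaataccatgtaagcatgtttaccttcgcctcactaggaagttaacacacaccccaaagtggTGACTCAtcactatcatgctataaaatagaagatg
Mmp14: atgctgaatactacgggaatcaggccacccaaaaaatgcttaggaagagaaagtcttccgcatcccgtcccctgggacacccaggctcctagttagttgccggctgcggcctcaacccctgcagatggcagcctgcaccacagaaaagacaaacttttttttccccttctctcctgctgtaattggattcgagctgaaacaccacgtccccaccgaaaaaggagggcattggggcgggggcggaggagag

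Promoter windows were found in RefSeq for 8 of the 10 genes, all but Mmp2 and Mmp9. The AP-1 letters were present in 2 of these 8 windows, those of Mmp3 and Mmp13, and in 6.75% of 32851 windows of the same length over all genes. The match lay 46 to 40 bases before the start in Mmp3 and 35 to 29 bases before it in Mmp13. Both windows also held TATAAA on the gene's strand, which 7.59% of all windows hold and none of the other 6 did. The thyroid half-site AGGTCA was searched on both strands and was in 0 of 8 windows, against 14% of all windows. These are matches of letters in a short window and say nothing of binding.

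TDM was compared with Vehicle to set the compound against its solvent. Mmp2, Mmp3 and Mmp14 rose, no gene of the 10 fell, and the other 7 did not pass the test. The 3 calls were made with edgeR's quasi-likelihood test at a Benjamini-Hochberg adjusted p under 0.05, under which 23.7% of all 17232 tested genes were called, 12% higher and 11.7% lower. With 3 calls in 10 genes, the share of members called was near the 23.7% of all tested genes called higher or lower. By direction, all 3 calls were rises, where 12% of all tested genes were called higher. No member was called lower, where 11.7% of all tested genes were. The median log2 fold change was 0.88 over the 6 proteases and 0.50 over the 4 inhibitors, against 0.01 over all tested genes.

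Mmp14 (ENSMUSG00000000957, chr14:54431612-54445364, plus strand, GRCm38) had a lowest, median and highest level of 200, 284 and 462 CPM in Blank, 74.3, 153 and 275 CPM in Vehicle and 150, 513 and 722 CPM in TDM. Of the TDM libraries, 7 stood above the highest Vehicle library, while TDM replicate 7 lay below the Vehicle median. The mean was 461 ± 198 CPM in TDM and 159 ± 57.4 in Vehicle (SD, n = 9 each). This is a log2 fold change of 1.54 ± 0.26 (SE), or 2.91-fold, with an edgeR adjusted p of 0.000441. The call held with each of the 27 libraries left out in turn, with adjusted p between 6.06e-05 and 0.0015.

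Mmp3 (ENSMUSG00000043613, chr9:7445822-7455975, plus strand), which cleaves proteoglycans and laminin and activates other metalloproteinases, had 34.7, 66.2 and 90.9 CPM in Blank, 12.8, 37.5 and 48.2 in Vehicle and 18.6, 102 and 164 in TDM (lowest, median and highest). TDM spanned the widest range: 6 libraries were above every Vehicle library, and 2 were below the Vehicle median. Mmp3 rose 2.45-fold (log2 fold change 1.29 ± 0.35 SE, adjusted p = 0.0101) and held its call with any 1 library left out.

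Mmp2 (ENSMUSG00000031740, chr8:92827291-92853420, plus strand) had 342, 584 and 963 CPM in Blank, 68.4, 212 and 431 in Vehicle and 125, 652 and 800 in TDM. The TDM libraries were spread from inside the Vehicle range to well above it, with 5 above the highest Vehicle library and 8 above the Vehicle median. Mmp2 rose 2.07-fold (log2 fold change 1.05 ± 0.33 SE, adjusted p = 0.0228). Its adjusted p stayed under 0.05 in each fit without 1 library, at most at 0.0465, and was 0.0592 with no filter on low counts.

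Mmp11, the stromelysin-3 gene, had 19.6, 25.9 and 38.9 CPM in Blank, 5.52, 9.14 and 29.6 in Vehicle and 11.2, 20.3 and 41.2 in TDM. All 9 TDM libraries were above the Vehicle median, but 7 lay within the Vehicle range. The log2 fold change of TDM over Vehicle was 0.71 ± 0.31 with an adjusted p of 0.0937. The call passed without Vehicle replicate 4 (log2 fold change 0.92) or Vehicle replicate 5 (0.87). It also passed with limma on log2(FPKM + 0.1) (adjusted p = 0.0444).

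Mmp9 lay between 7.21 and 12.1 CPM in Blank, between 3.35 and 8.35 in Vehicle and between 2.82 and 10.5 in TDM, with means of 6.49 ± 1.88 in Vehicle and 6.56 ± 2.66 in TDM. Vehicle and TDM overlapped, with 3 TDM libraries above the Vehicle range and 1 below it (log2 fold change 0.01 ± 0.21, adjusted p = 0.973). Mmp13 had 413 reads over all 27 libraries. Its level lay between 0.364 and 2.23 CPM in Blank, between 0.125 and 2.71 in Vehicle and between 0 and 1.95 in TDM. TDM replicate 7 had 0 reads, which allows a level of up to 0.177 CPM (3 counts, counting error only). At this depth no difference in Mmp13 was detected (-0.16 ± 0.54, adjusted p = 0.852).

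None of the 4 inhibitors passed the test in TDM against Vehicle. Timp2 (chr11:118301069-118355740, minus strand) had 700, 1193 and 1770 CPM in Blank, 295, 690 and 1056 in Vehicle and 362, 1284 and 1573 in TDM. TDM libraries lay both above the Vehicle range, in 5 cases, and below the Vehicle median, in 3. The log2 fold change was 0.66 ± 0.26 (adjusted p = 0.0643). Timp2 passed with DESeq2 (adjusted p = 0.0438), limma voom with quality weights (0.0060) and edgeR without Vehicle replicates 7 and 8 (0.0431). It also passed in edgeR fits without TDM replicate 3 (log2 fold change 0.73), 5 (0.73) or 7 (0.77) or Vehicle replicate 7 (0.77). Timp1 (ENSMUSG00000001131, chrX:20870166-20874735, plus strand), an inducible inhibitor that binds MT1-MMP poorly, had 3.34, 4.80 and 6.41 CPM in Blank, 2.01, 5.12 and 9.90 in Vehicle and 2.65, 8.79 and 13.8 in TDM. TDM exceeded the Vehicle median in 8 of 9 libraries, yet only 3 were above the Vehicle maximum. Its log2 fold change over Vehicle was 0.67 ± 0.26 (adjusted p = 0.0620). Timp1 passed with DESeq2 (adjusted p = 0.0473), limma voom (0.0043) and edgeR without Vehicle replicates 7 and 8 (0.0273) or 3, 7 and 8 (0.0469). It also passed without Vehicle replicate 7 (log2 fold change 0.83), Vehicle replicate 9 (0.75) or TDM replicate 7 (0.79).

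Timp3, which also inhibits ADAM17 and aggrecan-cleaving ADAMTS enzymes, lay between 138 and 269 CPM in Blank, between 68.3 and 281 in Vehicle and between 96.6 and 273 in TDM. No TDM library was outside the Vehicle range (log2 fold change 0.34 ± 0.25, adjusted p = 0.331). Timp4 lay between 12.1 and 34.4 CPM in Blank, between 13.04 and 39.3 in Vehicle and between 13.5 and 24.8 in TDM, with a log2 fold change of -0.11 and an adjusted p of 0.715. Timp1, Timp3 and Timp4 each lie inside a synapsin gene on the other strand, Syn1, Syn3 and Syn2, which averaged 1.34, 0.709 and 5.68 CPM. Mmp11 overlaps Chchd10 on the other strand (78.4 CPM) and Timp2 overlaps Cep295nl on its own strand (0.785 CPM). These overlaps are of whole gene spans, and whether exons overlap was not examined. The strand used in counting was not given in the sources used here. Only reads from a stretch that both genes of a pair count could be mixed.

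**Figure D2:**
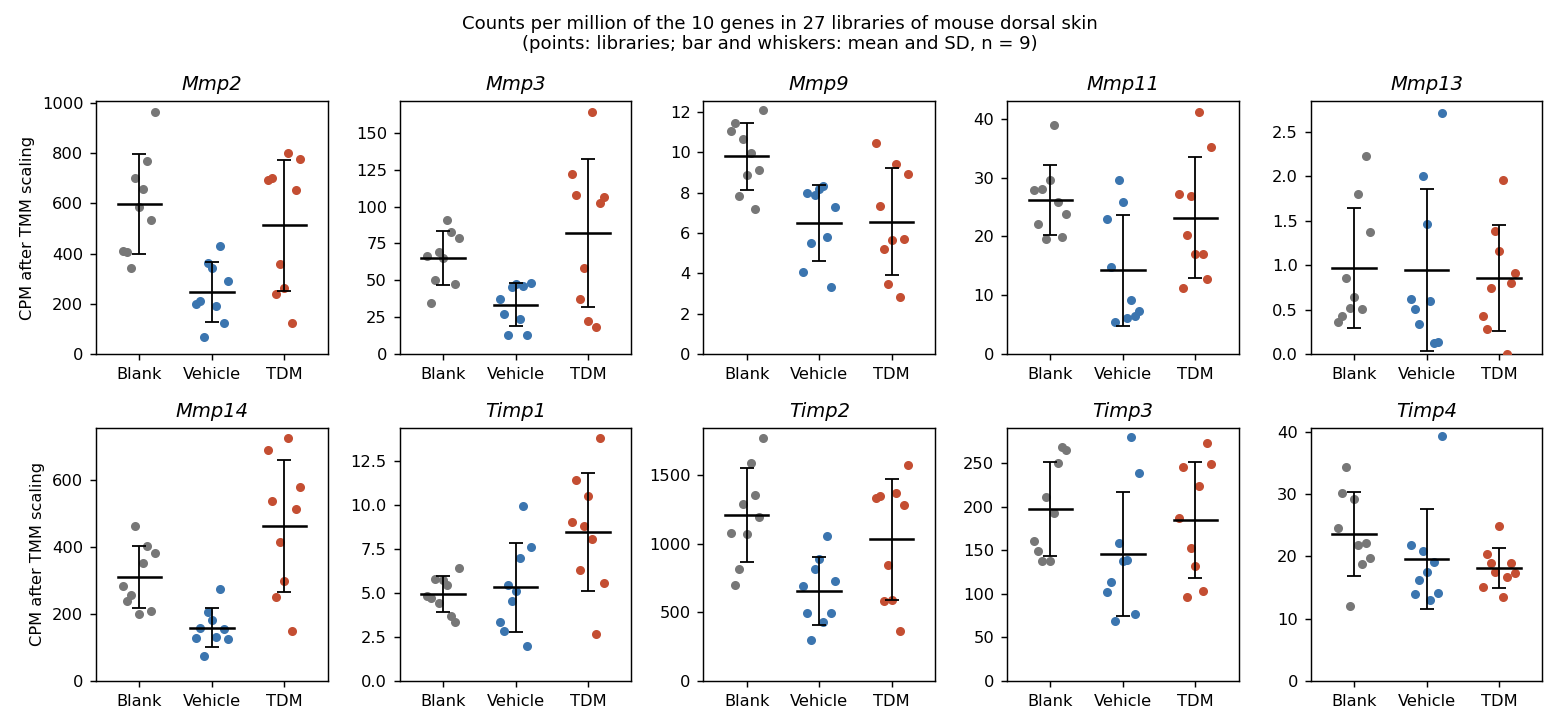
CPM after TMM scaling of the 10 genes in each library of Blank, Vehicle and TDM on linear axes from 0, with bars and whiskers for the mean and SD (n = 9). Mmp14 shows 7 TDM libraries above its highest Vehicle library at 275 CPM, while Timp4 shows 1 Vehicle library at 39.3 CPM away from the others.

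Vehicle was compared with Blank to set skin given the solvent against untreated skin. Mmp2 and Mmp14 fell, no gene of the 10 rose, and no inhibitor passed the test. Across all tested genes 2.76% were called in this comparison, 0.894% higher and 1.86% lower. The Vehicle libraries also serve the comparison above, so a low Vehicle level enters both. Mmp2 averaged 247 ± 118 CPM in Vehicle and 596 ± 200 in Blank, and all 9 Vehicle libraries were below the Blank median (log2 fold change -1.27 ± 0.33 SE, edgeR adjusted p = 0.0379). Mmp14 averaged 159 ± 57.4 CPM in Vehicle and 309 ± 93.3 in Blank, with 7 Vehicle libraries below every Blank library (log2 fold change -0.96 ± 0.26, adjusted p = 0.0407).

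Both calls could be lost by leaving out 1 library, but the log2 fold changes moved little. They stayed between -1.41 and -1.15 for Mmp2 and between -1.10 and -0.87 for Mmp14 in the 27 fits. Mmp2 lost its call in 10 of the 27 fits without 1 library (Blank replicates 4, 6, 7 and 9 and Vehicle replicates 1, 2, 3, 6, 8 and 9), with adjusted p up to 0.0907. Mmp14 lost its call in 10 as well (Blank replicates 1, 4, 6, 7 and 9 and Vehicle replicates 1, 3, 6, 8 and 9), with adjusted p up to 0.0877. Without Vehicle replicates 3, 7 and 8 the log2 fold changes were -1.16 for Mmp2 and -1.0004 for Mmp14, with adjusted p of 0.147 and 0.146. With no filter on low counts the adjusted p was 0.0961 for Mmp2 and 0.0972 for Mmp14.

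Other members had lower Vehicle values without passing. Mmp3 and Mmp9 were below the Blank median in all 9 Vehicle libraries (log2 fold changes -0.95 and -0.59, adjusted p = 0.0981 and 0.0941). Mmp3 passed with only the 2 groups compared (adjusted p = 0.0474). Timp2 was below the Blank median in all 9 (-0.88 ± 0.26, adjusted p = 0.0560). It passed with DESeq2 (adjusted p = 0.0174) and with only the 2 groups compared in edgeR (0.03555). It also passed without Blank replicate 2 or 3, Vehicle replicate 4, 5 or 7, or TDM replicate 7 or 9. Mmp11 was below the Blank median in 8 of 9 (-0.88, adjusted p = 0.0900), and passed without Vehicle replicate 4 (-1.09). Mmp11 also passed with DESeq2 (adjusted p = 0.04635) and with limma on log2(FPKM + 1) (0.04685) and log2(FPKM + 0.1) (0.04687). Timp3 and Timp4 had log2 fold changes of -0.43 and -0.28 (adjusted p = 0.261 and 0.347). Timp1 did not share this direction, at 0.11 (adjusted p = 0.818). Mmp13 was at -0.03 (adjusted p = 0.978).

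TDM was set against Blank to compare compound and solvent together with untreated skin. Timp1 rose, and none of the other 9 genes passed the test. Of all tested genes 16.2% were called, 11.6% higher and 4.63% lower, so 1 call in 10 genes is close to the background. Timp1 averaged 8.44 ± 3.33 CPM in TDM and 4.93 ± 1.01 in Blank (log2 fold change 0.78 ± 0.26 SE, 1.71-fold, adjusted p = 0.0416). In 6 of 9 TDM libraries it was above the highest Blank library, and in TDM replicate 7 it was below the lowest. The call was lost in 15 of 27 fits without 1 library, with adjusted p up to 0.0978. Those libraries were Blank replicates 1 to 8, Vehicle replicate 3 and TDM replicates 1, 2, 4, 5, 6 and 8. It was also lost with no filter (adjusted p = 0.0797), with the replicate number as a block (0.0855), with limma on log2(FPKM + 1) (0.0866), with limma on log2(FPKM + 0.1) (0.103) and with the skeletal muscle score as a covariate, where the log2 fold change was 0.38 (0.297).

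Mmp14 averaged 461 CPM in TDM and 309 in Blank (log2 fold change 0.58 ± 0.25, adjusted p = 0.124). It passed without TDM replicate 7, at 0.69 with an adjusted p of 0.0400. With limma voom and quality weights it passed at 0.84 (adjusted p = 0.0027). Mmp9 averaged 6.56 ± 2.66 CPM in TDM and 9.81 ± 1.66 in Blank, with 5 TDM libraries below every Blank library (log2 fold change -0.58 ± 0.21, adjusted p = 0.0592). It passed with DESeq2 (adjusted p = 0.0345), with limma on log2(FPKM + 1) (0.0280) and log2(FPKM + 0.1) (0.0338), without Vehicle replicates 7 and 8 (0.0436), and without Vehicle replicate 8 or TDM replicate 1, 6 or 9 alone. Mmp2, Mmp3, Mmp11 and Timp2 had log2 fold changes of -0.22, 0.34, -0.17 and -0.23 against Blank (adjusted p = 0.694, 0.541, 0.746 and 0.595). Timp3 and Timp4 were at -0.09 and -0.38 (adjusted p = 0.836 and 0.174), and Mmp13 at -0.19 (adjusted p = 0.845). The comparisons with Vehicle and with Blank share the TDM libraries, and their values are given side by side only.

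**Figure D3:**
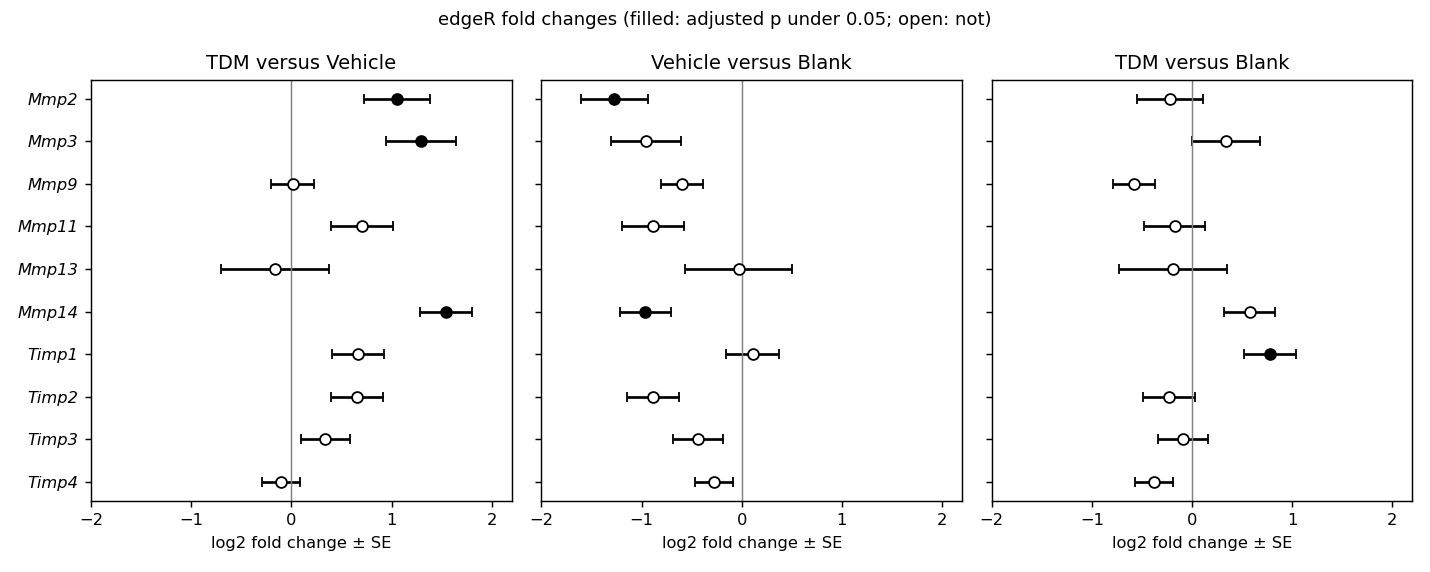
edgeR log2 fold changes with standard errors for the 10 genes in the 3 comparisons, with filled points for adjusted p under 0.05. Mmp2, Mmp3 and Mmp14 are filled on the right for TDM versus Vehicle, Mmp2 and Mmp14 on the left for Vehicle versus Blank, and Timp1 on the right for TDM versus Blank.

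Ratios within a library show how the genes moved relative to each other. They were chosen with the fold changes known and are given as descriptions without a test, and 8 such quantities were computed. The ratio of Mmp14 to Timp2 in FPKM had a lowest, median and highest value of 0.113, 0.172 and 0.234 in Blank, 0.111, 0.165 and 0.209 in Vehicle and 0.240, 0.282 and 0.345 in TDM. All 9 TDM libraries were above all 18 others, including TDM replicate 7, whose Mmp14 level was low. Of 17231 genes set against Timp2 in the same way, 0.0348% had all TDM libraries above all Vehicle libraries and 0.0232% had them above both groups. The latter were Cntn1, Ighg1, Kng2 and Mmp14.

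The ratio of Mmp14 to Mmp2 averaged 0.306 ± 0.0817 in Blank, 0.410 ± 0.148 in Vehicle and 0.548 ± 0.1004 in TDM (SD, n = 9 each). Here 8 TDM libraries were above every Blank library, but none was above the highest Vehicle library. Mmp2 to Timp2 averaged 0.571 ± 0.0885 in Blank, 0.423 ± 0.098 in Vehicle and 0.547 ± 0.0832 in TDM, so Blank and TDM covered much the same range. Summed over the 6 proteases, FPKM averaged 276 ± 80.7 in Blank, 125 ± 51.9 in Vehicle and 282 ± 139 in TDM. The 4 inhibitors summed to 342 ± 94.8, 193 ± 70.3 and 296 ± 122 FPKM. The ratio of these sums averaged 0.811 ± 0.0953 in Blank, 0.634 ± 0.105 in Vehicle and 0.916 ± 0.142 in TDM, and 8 of 9 TDM libraries were above every Vehicle library. Both sums are carried mainly by Mmp2 and Timp2, the most abundant of each kind. RNA ratios are not ratios of active protein.

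**Figure D4:**
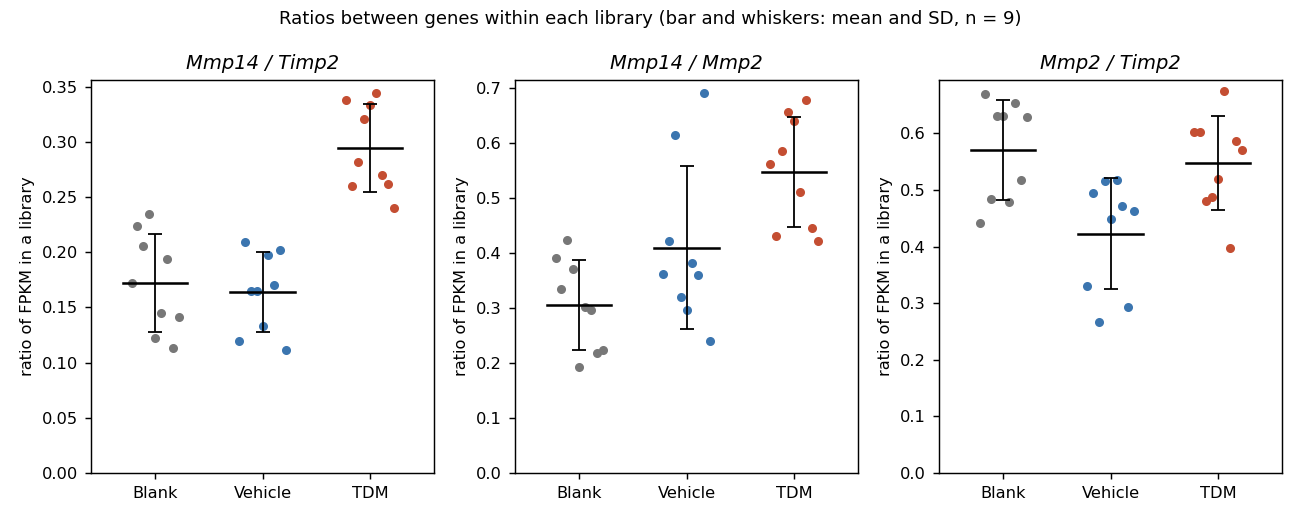
Ratios of FPKM between genes in each library on linear axes from 0, with bars and whiskers for the mean and SD (n = 9). For Mmp14 to Timp2 the lowest TDM library, at 0.240, is above the highest Blank library at 0.234 and the highest Vehicle library at 0.209.

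The abundant members moved together from library to library. Across the 27 libraries, log2 CPM of Mmp2 and Timp2 correlated with Pearson's r = 0.96 and Spearman's rho = 0.97, and within Blank, Vehicle and TDM r was 0.88, 0.93 and 0.99. Leaving out the 2 libraries farthest from the median of Mmp2 gave r = 0.95. Mmp2 and Mmp14 had r = 0.84 and rho = 0.83 (0.63, 0.84 and 0.98 within groups, and 0.79 without the 2 farthest). Mmp14 and Timp2 had r = 0.80 and rho = 0.80 (0.61, 0.82 and 0.97 within groups, and 0.75 without the 2 farthest). The libraries share depth scaling and tissue content, so these values describe the libraries. In a permutation test each had the smallest p that 100000 permutations give, 1e-05 (4.6e-05 for r and 5.4e-05 for rho after Benjamini-Hochberg adjustment over 65 relations).

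Of 14102 genes compared over the 27 libraries, those most like Mmp2 were Itgbl1 (r = 0.99, rho = 0.98), Pdgfrl (0.97, 0.95) and Dcn (0.97, 0.95), the last of which encodes the dermal proteoglycan decorin. Among those most like Timp2 were C1s1 (r = 0.97, rho = 0.96) and Pltp (0.97, 0.97). For these 5 genes r was between 0.96 and 0.98 after group means were taken away. Those most like Mmp14 were Ptgfrn (r = 0.92, rho = 0.91), Fzd1 (0.91, 0.91) and Scpep1 (0.91, 0.90), with r of 0.85, 0.81 and 0.85 after group means were taken away.

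Markers of dermal fibroblasts moved with these genes. Of 15 fibroblast genes, 9 rose and none fell in TDM against Vehicle, none passed in Vehicle against Blank, and 3 rose in TDM against Blank. Their summed level lay between 4475 and 6946 CPM in Blank, between 1777 and 7401 in Vehicle and between 3093 and 8924 in TDM. None of the markers was at 0 in all 27 libraries. The mean log2 CPM of the list, called the fibroblast score here, was 7.70 ± 0.251 in Blank, 7.06 ± 0.608 in Vehicle and 7.82 ± 0.531 in TDM. Vehicle replicate 3 and TDM replicate 7, the lowest of their groups for Mmp2, Mmp14 and Timp2, also had the lowest scores of their groups, 6.08 and 6.67. With this score, Mmp2 had r = 0.92 and rho = 0.86, Timp2 r = 0.91 and rho = 0.85, Mmp14 r = 0.87 and rho = 0.88, Timp1 r = 0.63 and rho = 0.63, and Timp4 r = 0.15 and rho = 0.08. In bulk tissue, fewer cells of a type and less RNA per cell cannot be told apart.

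When the fibroblast score was added to the edgeR fit as a covariate, Mmp14 still rose in TDM against Vehicle (log2 fold change 0.70, adjusted p = 0.0374). Mmp2 and Mmp3 did not pass (-0.17 and 0.05, adjusted p = 0.579 and 0.927), and neither Mmp2 nor Mmp14 passed in Vehicle against Blank (adjusted p = 0.504 and 0.594). Against Blank, Timp1 rose in TDM with the fibroblast score (0.63, adjusted p = 0.0342) but not with the muscle score (0.38, 0.297). With the fibroblast score Mmp2 (-0.55, adjusted p = 0.0047), Mmp9 (-0.68, 0.0106) and Timp2 (-0.45, 0.0049) fell. In the fit with the fibroblast score, 4213 of 17232 tested genes were called in TDM against Blank. That fit called 1094 in TDM against Vehicle and 0 in Vehicle against Blank. The score itself differed between the groups, as given above.

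**Figure D5:**
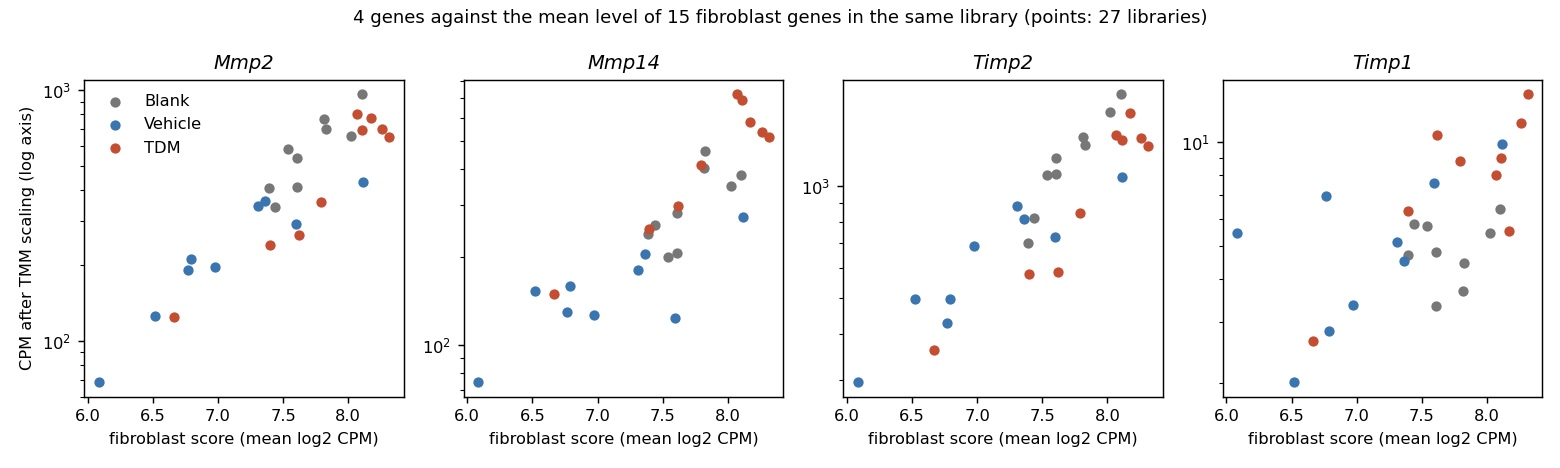
CPM after TMM scaling (log axis) of Mmp2, Mmp14, Timp2 and Timp1 against the fibroblast score, the mean log2 CPM of 15 fibroblast genes, with 1 point per library coloured by group. Mmp2 and Timp2 follow the score closely (r = 0.92 and 0.91), and Timp1 follows it less closely (r = 0.63).

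Skeletal muscle genes moved the other way. Of 19 tested, 18 fell in TDM against Vehicle, none passed in Vehicle against Blank and 1 fell in TDM against Blank. The summed level of the 20 genes lay between 31820 and 77690 CPM in Blank, between 30340 and 104900 in Vehicle and between 21360 and 54310 in TDM. None of them was at 0 in all 27 libraries. With the muscle score as a covariate no member passed in TDM against Vehicle, and the log2 fold changes were 0.88 for Mmp14 (adjusted p = 0.135), 0.55 for Mmp3 (0.611) and 0.04 for Mmp2 (0.973). Only 202 genes in all passed in that fit. In TDM against Blank with the same covariate, Mmp2 (-0.88, adjusted p = 0.0386), Mmp9 (-0.94, 0.0022) and Timp3 (-0.60, 0.0445) were called lower. None of these 3 genes passed against Blank without the covariate, and the share of all tested genes called in this fit is not given here. The groups differed in the covariate too, with averages of 10.68 for Blank, 11.07 for Vehicle and 10.13 for TDM. Over the 27 libraries its r was -0.66 with Mmp2, -0.35 with Mmp9 and -0.66 with Timp3. Whether these 3 genes fell apart from this adjustment was not tested. 

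Marker lists of other skin cells moved in the same comparisons. In TDM against Vehicle, 8 of 12 genes of the growing hair matrix, 5 of 10 of the dermal papilla and 4 of 8 of suprabasal keratinocytes rose, while 6 of 7 of basal keratinocytes fell and, of 8 sebaceous genes, 4 fell and 1 rose. In Vehicle against Blank, 4 of 8 suprabasal genes fell and no gene of the other 4 lists passed. In TDM against Blank, 10 of 12 hair matrix and 6 of 10 dermal papilla genes rose, and 5 of 8 sebaceous, 1 of 7 basal and 1 of 8 suprabasal genes fell. The summed hair matrix markers lay between 111 and 342 CPM in Blank, between 160 and 711 in Vehicle and between 327 and 841 in TDM. The summed dermal papilla markers lay between 107 and 149 CPM in Blank, between 77.8 and 227 in Vehicle and between 170 and 392 in TDM. The summed suprabasal markers lay between 1408 and 6172 CPM in Blank, between 814 and 2416 in Vehicle and between 672 and 5659 in TDM. The summed basal markers lay between 4527 and 8285 CPM in Blank, between 4712 and 13050 in Vehicle and between 4634 and 7040 in TDM. The summed sebaceous markers lay between 899 and 1897 CPM in Blank, between 639 and 2078 in Vehicle and between 541 and 919 in TDM. No marker of these 5 lists was at 0 in all 27 libraries. Of 7 tested mast cell genes 1 rose in TDM against Vehicle and 1 fell in Vehicle against Blank, of 6 pericyte genes 1 fell in TDM against Vehicle and 1 rose in TDM against Blank, and no endothelial or adipocyte gene passed. The pericyte list shares the gene Des with the skeletal muscle list. The part of all these cells in the values of the 10 genes was not tested.

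Macrophages and neutrophils are known sources of Mmp9. The summed macrophage markers lay between 1012 and 3346 CPM in Blank, between 320 and 1974 in Vehicle and between 473 and 2652 in TDM. The summed neutrophil markers lay between 18.1 and 39.2 CPM in Blank, between 7.29 and 23.0 in Vehicle and between 11.2 and 27.3 in TDM. No macrophage or neutrophil marker was at 0 in all 27 libraries. None of 8 macrophage genes passed in any comparison. Of 5 tested neutrophil genes, 1 fell in Vehicle and 1 in TDM, each against Blank. Their part in the Mmp9 values was not tested.

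The rest of the metalloproteinase family was examined in the same fits. Of 17 further genes of the family 9 were tested, and the 8 that were not (Mmp1a, Mmp1b, Mmp7, Mmp8, Mmp10, Mmp20, Mmp21 and Mmp24) had at most 0.853 CPM in any library. In TDM against Vehicle, Mmp16 (MT3-MMP, 1.67-fold, adjusted p = 0.0178) and Mmp19 (1.86-fold, adjusted p = 0.0363) rose, and the membrane-type gene Mmp15 fell to 0.719-fold (adjusted p = 0.0035). These are 3 of 9, against 23.7% of all tested genes called. None of the 9 passed in the other comparisons.

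The ADAM and ADAMTS families, relatives of the metalloproteinases and partly targets of Timp3, were tested as well. Of 24 tested, 11 rose and 1 fell in TDM against Vehicle, 8 rose and 1 fell in TDM against Blank, and none passed in Vehicle against Blank. Over all tested genes 23.7%, 16.2% and 2.76% were called in these comparisons. Adamts18 rose 7.01-fold over Vehicle (adjusted p = 0.0016) and 9.18-fold over Blank (0.00034). Its level was low outside TDM, at 1.47 ± 2.39 CPM in Vehicle and 1.12 ± 0.658 in Blank, against 10.3 ± 5.46 in TDM (SD). Adamts4, an aggrecan-cleaving enzyme, rose 3.97-fold over Vehicle (adjusted p = 0.0040), and Adamts15 rose 3.11-fold over Blank (0.00054). Adam33 was the gene that fell, to 0.793-fold of Vehicle and 0.780-fold of Blank (adjusted p = 0.0485 and 0.0454).

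Of 17 tested genes that activate or control these proteases, 6 rose and 2 fell in TDM against Vehicle. The proprotein convertase gene Pcsk5 rose 2.26-fold (adjusted p = 0.0049) and the cathepsin K gene Ctsk, a collagen-cleaving protease of the lysosome, rose 2.81-fold (0.0089). Serpine2, a serine protease inhibitor, fell to 0.690-fold (0.0025) and Hpn, a membrane serine protease, to 0.638-fold (0.0053). Against Blank, 3 fell in Vehicle, Ctsk to 0.353-fold (adjusted p = 0.0379) and Pcsk6 to 0.574-fold (0.0358) among them. In TDM against Blank 1 of 17 fell, the antiplasmin gene Serpinf2, to 0.515-fold (0.0067).

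Of 26 genes of matrix substrates, 14 rose and 1 fell in TDM against Vehicle, with a median log2 fold change of 0.72. The basement membrane genes Nid1 and Lamb1 rose 1.91-fold and 1.61-fold (adjusted p = 0.0134 and 0.0074), and Col17a1, a collagen of the basal keratinocyte's anchoring junction, fell to 0.608-fold (0.0053). In Vehicle against Blank 1 fell, the small proteoglycan gene Bgn, to 0.530-fold (0.0452). In TDM against Blank 3 rose, led by the aggrecan gene Acan at 18.3-fold (0.0030), with the versican gene Vcan at 1.98-fold (0.0260). Acan averaged 18.2 ± 9.67 CPM in TDM and 0.977 ± 1.85 in Blank (SD), so its fold change rests on a low and uneven Blank level.

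Of 19 tested transcription factors and cytokines known to act on metalloproteinase genes, 2 rose in TDM against Vehicle and none fell, where 23.7% of all tested genes were called, and none passed in Vehicle against Blank. Runx2, a transcription factor known to act on Mmp13 in bone, rose 1.82-fold over Vehicle (adjusted p = 4.31e-05) and 1.62-fold over Blank (0.00028), and Tgfb3 rose 1.26-fold over Vehicle (0.0184). Tgfb2 fell to 0.767-fold of Blank in TDM (0.0279). The 5 lists hold other genes of the pathway, and the share of all tested genes called in each comparison was given above.

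In the authors' deposited table of their own comparisons, Mmp2, Mmp3 and Mmp14 were under an adjusted p of 0.05 for TDM versus Vehicle. For Vehicle versus Blank the authors' deposited table had Mmp2, Mmp3, Mmp9, Mmp11, Mmp14 and Timp2 under 0.05, against Mmp2 and Mmp14 in the edgeR fit here. For TDM versus Blank the authors' deposited table had Mmp9 and Timp1. Over all genes with an adjusted p there, 4178 of 31270 were under 0.05 for TDM versus Vehicle. The counts were 1434 of 31356 for Vehicle versus Blank and 3812 of 31301 for TDM versus Blank.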

How the data were processed

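Dorsal skin RNA was sequenced in 27 libraries. Read counts per gene, named only as counts in the file headers, were deposited beside FPKM values made by the authors. The authors' deposited table also holds p-values and log2 fold changes of their comparisons, made with a tool that was not named in the sources used here. Bowtie 0.12.2 and mm9 are named in the submitters' processing notes. Of 54495 genes found by identifier in GENCODE M21, 98.33% had the same coordinates, so coordinates are those of the table, on GRCm38.

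Groups came from the sample titles. The members, gene lists and rules were chosen with earlier results of these data known. Named genes were all 10 members, up to 2 called genes per list, comparison and direction with the smallest p and a mean of at least 1 CPM, and the 3 genes most like each of Mmp2, Timp2 and Mmp14, of which 1 is not reported here. The low-count filter was filterByExpr with a minimum count of 10 and a minimum total of 15, leaving 17232 genes with 99.86% of reads. All 10 members passed. edgeR 4.0.16 in R 4.3.3 was used for TMM scaling of the counts and for a robust quasi-likelihood fit (glmQLFit, then glmQLFTest) of the 3 groups on all 27 libraries, and p-values were adjusted over all tested genes. Fits were tested on simulated data. Single-gene adjusted p-values are edgeR's unless another tool is named. Over 108 pairs of libraries within a group, chi-square per degree of freedom was at least 8.5.

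Alternatives were DESeq2 1.42.0, limma 3.58.1 voom with quality weights, no filter, RLE scaling, a mean of at least 1 CPM as the filter, 2 groups only, the muscle or the fibroblast score as a covariate, a replicate block, limma fits of log2(FPKM + 1) and of log2(FPKM + 0.1), each library left out, and fits without Vehicle replicates 7 and 8 or 3, 7 and 8. Libraries with the same number in 2 groups did not deviate together (27 pairs, correlations -0.33 to 0.425), so the block is only an alternative. Correlations were tested with scipy 1.17.1, and figures were drawn with matplotlib 3.10.9.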

Additional observations from a re-analysis of the deposited data

Results flagged for a closer look

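Timp4 in Vehicle replicate 9 stood far from the other Vehicle libraries, at 39.3 CPM against 21.8 CPM for the next, a gap of 0.666 of the whole Vehicle range. It was the only such library among 30 combinations of member and group, and chance alone flags about 1 group in 20. Without it, the log2 fold change of Timp4 in TDM against Vehicle was 0.09 in place of -0.11.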

How the results depend on the processing

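Of 399 values of single members under the alternatives in each comparison, 348 kept their direction and side of the threshold for TDM versus Vehicle, 339 for Vehicle versus Blank and 356 for TDM versus Blank. None of the values that changed sign was called. The causes of the changes below were not tested.

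Genes called for TDM versus Vehicle numbered 6921 with voom, 202 with the muscle score and 1094 with the fibroblast score. Members called for TDM versus Vehicle were 5 with DESeq2, voom and without Vehicle replicates 7 and 8, 0 with the muscle score (3 at an unadjusted p under 0.05 in edgeR), 1 with the fibroblast score and 3 to 5 without 1 library, the 5 coming without Vehicle replicate 7 or TDM replicate 7.

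For Vehicle versus Blank, genes called numbered 1433 with DESeq2, 2 with no filter, 0 with the muscle score (2989 at an unadjusted p under 0.05), 0 with the fibroblast score (1587), 84 without Vehicle replicates 7 and 8, 0 without 3, 7 and 8 (2835), and 0 to 1289 without 1 library. Leaving out Blank replicate 4, 6 or 9, or Vehicle replicate 1, 3, 6 or 8, gave 0 (3430 to 4327 at an unadjusted p under 0.05), leaving out Blank replicate 7 gave 1, and leaving out Vehicle replicate 7 gave 1289. Leaving out Blank replicate 1 gave 256 and Blank replicate 3 gave 867, while Vehicle replicate 4 gave 823, Vehicle replicate 5 gave 860, Vehicle replicate 9 gave 250 and TDM replicate 7 gave 841. Members called were 4 with DESeq2 and with only the 2 groups compared, 0 with no filter, either score, or without Vehicle replicates 7 and 8 or 3, 7 and 8, and 0 to 4 without 1 library.

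For TDM versus Blank, genes called numbered 2793 in the main fit, 5268 with voom and 4213 with the fibroblast score. They numbered 2307 to 3073 without 1 library. For the other settings the number of all genes called is not given here, so their member counts stand without a background. Members called were 2 with DESeq2, voom and without Vehicle replicates 7 and 8 or 3, 7 and 8. The 2 were Mmp9 and Timp1 with DESeq2 and Mmp14 and Timp1 with voom. Members called were 0 with no filter (4 at an unadjusted p under 0.05), 3 with the muscle score, 4 with the fibroblast score and 0 to 2 without 1 library.

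Some log2 fold changes of members changed sign. For TDM versus Vehicle, Mmp9 was at -0.0007 with DESeq2, -0.0008 with RLE, -0.035 with the replicate block, -0.56 and -0.41 with the muscle and fibroblast scores, -0.0178 and -0.0438 on log2(FPKM + 1) and log2(FPKM + 0.1), -0.10 and -0.18 without Vehicle replicates 7 and 8 or 3, 7 and 8, and -0.10 to 0.11 without 1 library. Mmp13 was at 0.0005 with the muscle score and -0.41 to 0.22 without 1 library, and Timp4 at -0.186 to 0.0898. With the fibroblast score Mmp2 was at -0.17, Timp2 at -0.27 and Timp3 at -0.37, and with the muscle score Timp3 was at -0.37. For Vehicle versus Blank, Mmp13 was at 0.32 with voom, 0.69 with the fibroblast score, 0.28 and 0.44 without Vehicle replicates 7 and 8 or 3, 7 and 8, and -0.42 to 0.22 without 1 library, Timp1 at -0.0194 on log2(FPKM + 0.1) and -0.056 to 0.218 without 1 library, and Timp3 at 0.11 with the fibroblast score. For TDM versus Blank, Mmp2 was at 0.0768 and Timp3 at 0.0009 with voom, Mmp3 at -0.17 and -0.0246 with the muscle and fibroblast scores, and Mmp13 at -0.441 to 0.0634 without 1 library.

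With the replicate block, 3946, 598 and 2621 genes were called for TDM versus Vehicle, Vehicle versus Blank and TDM versus Blank, and members called were 3, 2 and 1. The block called Mmp9 (adjusted p = 0.0325) in place of Timp1 (0.0855) for TDM versus Blank. Of the 27 libraries, 4 matched best the library of their own number in another group. A filter at a mean of 1 CPM left Mmp13 without a value. Depth limits Mmp13 most, with a median of 11 reads in a library.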

Other observations

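Mmp3 and Mmp13 lie in a row of metalloproteinase genes on chromosome 9 of GRCm38, between 7272514 (Mmp13) and 7699585 (Mmp7). Their levels differed widely over the 27 libraries: in mean FPKM, Mmp3 had 33.1, Mmp27 8.89, Mmp12, the macrophage elastase gene, 1.18, Mmp13 0.342 and Mmp8, a neutrophil collagenase gene, 0.0997. Mmp10 was at 0.0298, and Mmp1a, Mmp1b, Mmp7 and Mmp20 were each at 0.0101 or less. Of this row, Mmp3 was called in TDM against Vehicle (log2 fold change 1.29, edgeR adjusted p = 0.0101). Mmp27 was at 0.43 (adjusted p = 0.266) and Mmp12 at -0.54 (0.361). This row of genes was picked out after their values were seen.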
